A study of Mus musculus with 6 samples.

Results

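The 26 genes described here encode enzymes of cholesterol synthesis, the SREBP2 control system and a few sterol-handling proteins. They were chosen by symbol from a fixed list, drawn up with earlier results of these data known. All 26 were found among the 18720 rows of each deposited table. The libraries came from livers of male C57BL/6 mice, 1 year old, all kept on a high-fat diet. The R159 group (3 libraries) received intraperitoneal R159, a compound known only by its code name, 2 times a week for 12 weeks. The vehicle group (3 libraries) received vehicle on the same schedule and the same diet, so no mouse on another diet is compared here. Since no label ties a library to its own animal, the p-values speak of the spread among these libraries, part of which may be technical. By the title, the study inactivates a non-canonical arm of gp130, a signalling subunit shared by several cytokine receptors, and the comparison asks how liver transcripts differ between drug and vehicle.

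Cholesterol is built from acetyl-CoA in the endoplasmic reticulum and cytosol. The mevalonate arm makes isoprenoid units, the squalene arm joins and cyclises them to lanosterol, and the sterol arm trims lanosterol to cholesterol. When membrane sterol is low, the escort protein SCAP carries the transcription factor SREBP2 to the Golgi, where it is cut and released to the nucleus to switch on these genes together. When sterol is high, the INSIG proteins hold SCAP and SREBP2 back. The liver is a main site of this synthesis.

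The 18 synthesis enzymes lay low in vehicle replicates 1 and 2 and high in vehicle replicate 3, with most R159 values in between or above. Of the 26 genes, 2 were called higher in R159 livers and 0 lower: Tm7sf2 rose 2.42-fold and Ebp 1.68-fold. Calls are by limma on log2(value + 1) at a Benjamini-Hochberg adjusted p under 0.05 over all 16594 genes tested, of which 12.8% were called higher and 14.2% lower. All 26 genes passed the filter on low values. The share called among the 26 was thus not above that of all genes tested. The median log2 fold change (R159 minus vehicle) of the 26 was 0.33, against 0.00 over all genes tested, and 20 of the 26 lay above 0. Srebf2 and Scap, which encode the factor and its sterol-sensing escort, lay below 0 without passing the test. At an unadjusted p under 0.05 there were 5 of the 26, against 41.5% of all genes tested. Without vehicle replicate 3, 12 of the 26 were called higher, where 6.39% of all genes were, and 0 were called lower, where 6.7% of all genes were. Without vehicle replicate 2 none of the 26 was called in either direction, where 5.51% of all genes were higher and 5.54% lower. With the trend of values with transcript length removed none was called either, where 9.94% of all genes were higher and 8.2% lower.

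Values are normalised estimated counts, and estimated depth was 51.3 to 55.7 M reads in R159 and 66.0 to 76.7 M reads in vehicle. Short transcripts were in general higher in R159 replicates 2 and 3 than in the vehicle libraries: the correlation of a library's deviations with transcript length (Spearman's rho across 11166 coding genes, which are not independent replicates) was 0.017, -0.60 and -0.49 in R159 replicates 1 to 3 and 0.34 to 0.51 in vehicle. R159 replicate 2 stood apart, with 973 genes listed at 0, against 202 to 519 in the other libraries. Mitochondrial transcripts made up 10.6%, 13.6% and 8.42% of the values in R159 and 7.43%, 5.01% and 5.29% in vehicle, with no overlap, and their part in the results was not tested. The 26 transcripts have a median length of 2727.5 nt (1194 to 5097 nt). In these bulk libraries, fewer cells of a type and less RNA per cell cannot be told apart. Hepatocyte markers, 11 of which were tested, summed, in units of 1000, to 5148 to 8446 in R159 and 4304 to 6330.5 in vehicle, with 1 called higher and 2 lower. In the same unit the summed levels in R159 and in vehicle were 21.1 to 29.0 and 27.0 to 41.1 for 14 Kupffer cell and macrophage markers (0 called higher, 4 lower), and 15.7 to 33.9 and 23.3 to 41.1 for 12 stellate cell markers (0 higher, 4 lower). They were 10.4 to 13.0 and 9.96 to 13.8 for 10 sinusoidal endothelial markers (0 higher, 0 lower), and 16.6 to 28.3 and 35.3 to 63.2 for 8 cholangiocyte markers, 7 of them tested (1 higher, 2 lower). They were 1.67 to 5.88 and 1.10 to 1.66 for 12 lymphocyte markers (2 higher, 0 lower), and 41.3 to 60.4 and 13.1 to 22.0 for 9 erythroid markers (6 higher, 0 lower). With the length trend removed, macrophage markers had 0 higher and 8 lower, stellate 0 and 2, hepatocyte 1 and 0, endothelial 2 and 0, cholangiocyte 1 and 3, lymphocyte 1 and 0, and erythroid 2 and 0. Without vehicle replicate 3, macrophage markers had 1 higher and 6 lower, stellate 0 and 2, hepatocyte 0 and 0, and endothelial 0 and 0. In that setting cholangiocyte markers had 0 and 3, lymphocyte 0 and 0, and erythroid 5 and 0. Beside the marker counts, 12.8% of all genes tested were called higher and 14.2% lower. The shares were 9.94% and 8.2% with the length trend removed, and 6.39% and 6.7% without vehicle replicate 3. Cftr was listed at 0 in at least 1 library. Among the cholangiocyte markers, Krt8, 1 of the 2 called lower, had values of 13958, 24061 and 20230 in R159 and 49320, 48765 and 29461 in vehicle. It made up most of the summed level in each library, so that sum mainly follows 1 gene and is no measure of the cell type. Krt7, the 1 called higher, had a log2 fold change of 1.32 (limma adjusted p = 0.0251). The part of these cell types in the results below was not tested.

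**Figure D1:**
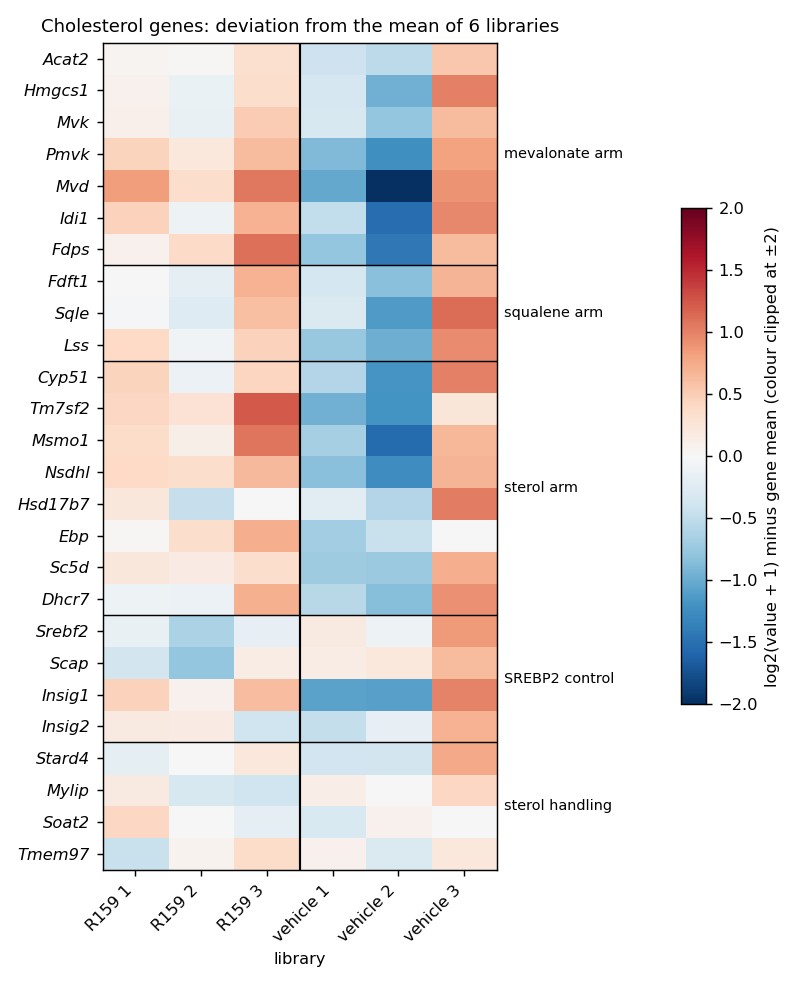
Heat map of the 26 genes (rows, in pathway order) in the 6 libraries (columns, R159 left of vehicle); colour is log2(value + 1) minus the gene's mean over the libraries, clipped at ±2. Vehicle replicate 2 is the lowest library for 18 genes and vehicle replicate 3 the highest for 18.

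The mevalonate arm starts with Acat2, the cytosolic thiolase that joins acetyl-CoA units (not the sterol acyltransferase once given the same protein name), which had values of 4521, 4443 and 5483 in R159 and 3289.5, 3037 and 6352 in vehicle. Its neighbour Acat3, a close relative whose reads may be divided uncertainly with it, had 21140, 28940 and 24930 in R159 and 17460, 20140 and 19340 in vehicle. Hmgcs1, the cytosolic HMG-CoA synthase, had 18120, 15717 and 21843 in R159 and 13519, 8794 and 34397 in vehicle. For Acat2 and Hmgcs1 vehicle replicate 3 lay above every R159 library and the other vehicle libraries below, so the groups overlapped and the log2 fold changes were small, 0.26 (95% interval -0.34 to 0.87) and 0.20 (-0.75 to 1.16).

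Next come the kinases that phosphorylate mevalonate in sequence. Mvk had 1095, 920.2 and 1457 in R159, against 818, 601 and 1589 in vehicle. Pmvk had 2308, 1974 and 2649.7 in R159, against 919, 729 and 2987 in vehicle. The log2 fold change was 0.30 (SE 0.34) for Mvk and 0.86 (SE 0.45) for Pmvk, and neither passed the test (limma adjusted p = 0.523 and 0.175). In both genes vehicle replicate 3 was the highest of the 6 libraries and vehicle replicate 2 the lowest.

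Mvd, which decarboxylates mevalonate diphosphate to the first isoprenoid unit, showed the largest fold change of the 26 and also the widest vehicle spread. Its values were 1929, 1382 and 2250.2 in R159 and 532, 251 and 2029 in vehicle, an 8.09-fold range among the vehicle libraries against 1.63-fold in R159. Vehicle replicates 1 and 2 lay below every R159 library, and vehicle replicate 3 lay among them. The log2 fold change was 1.49 (95% interval 0.10 to 2.88), which did not pass over all genes (limma adjusted p = 0.101). It was 2.31 without vehicle replicate 3 (limma adjusted p = 0.0151) and 0.80 without vehicle replicate 2 (limma adjusted p = 0.278).

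Idi1, which isomerises the isoprenoid unit, had 5851, 3937 and 6859.8 in R159 and 3014, 1465 and 8194 in vehicle. Fdps, which links these units to farnesyl diphosphate, had 11575, 14313 and 23526 in R159 and 6439.8, 4079 and 16918 in vehicle. Both again had vehicle replicate 2 at the bottom and vehicle replicate 3 within or above the R159 range. Their log2 fold changes were 0.71 and 1.04 (limma adjusted p = 0.332 and 0.126). In the mevalonate arm as a whole 0 of 7 genes were called, where 12.8% of all genes were called higher and 14.2% lower. All 7 log2 fold changes lay above 0, and their median was 0.71.

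In the squalene arm, Fdft1, the squalene synthase, had 6894, 5975 and 11129 in R159, against 5384, 3849 and 10950 in vehicle. Sqle, the squalene epoxidase and a slow step of the pathway, had 2094, 1779 and 3236 in R159, against 1747, 974 and 4646 in vehicle. Lss, which cyclises the epoxide to lanosterol, had 3344, 2405.5 and 3471 in R159, against 1494, 1284 and 4896 in vehicle. None of the 3 was called (limma adjusted p = 0.397 to 0.781), where 12.8% of all genes were called higher and 14.2% lower. The log2 fold changes of the 3 ran from 0.20 to 0.52. In each, the R159 libraries lay between vehicle replicate 2 and the higher of the vehicle libraries, except Fdft1 in R159 replicate 3.

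**Figure D2:**
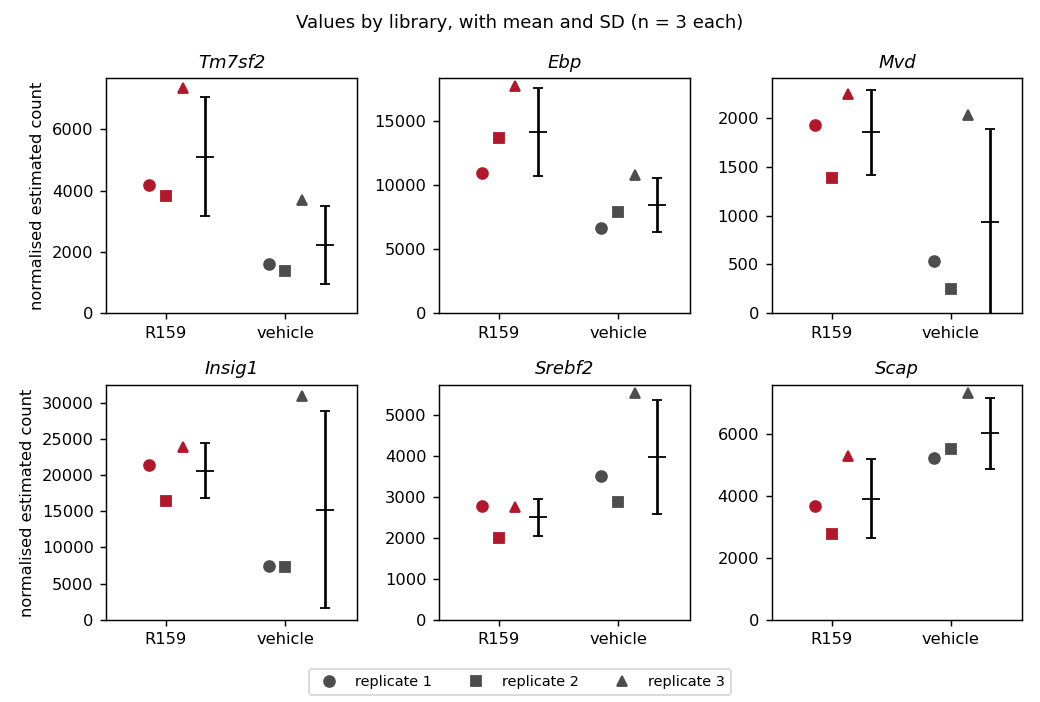
Normalised estimated counts of Tm7sf2, Ebp, Mvd, Insig1, Srebf2 and Scap by library, with mean and SD, n = 3 each. Symbols mark the replicate number, which is not known to pair the groups. Axes start at 0, and the lower SD bar of Mvd in vehicle passes below 0. Tm7sf2 and Ebp in R159 lie above all vehicle libraries by a narrow margin, Srebf2 in R159 lies below them, and vehicle replicate 3 is the highest vehicle library in each panel.

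The sterol arm held both called genes. Tm7sf2, a sterol reductase that acts after the demethylation of lanosterol, had 4169.6, 3816 and 7344.5 in R159, against 1617, 1369 and 3702.5 in vehicle. The groups did not overlap, but only by the small gap between the lowest R159 library (3816) and vehicle replicate 3 (3702.5). Groups with R159 wholly above vehicle were seen for 2 of the 26 genes, against 22.5% of all genes tested. The means were 5110 ± 1943 in R159 and 2230 ± 1282 in vehicle (SD, n = 3 each), and the log2 fold change was 1.28 (SE 0.38, limma adjusted p = 0.0357). Tm7sf2 was not called once the transcript length trend was removed (0.99, limma adjusted p = 0.107), nor when any 1 library other than vehicle replicate 3 was left out, R159 replicates 1, 2 and 3 and vehicle replicates 1 and 2 in turn (0.98 to 1.46, limma adjusted p = 0.0509 to 0.114). Its transcript is 1498 nt, and the gene shares 532 bases with its same-strand neighbour Vps51 in the GENCODE annotation of an earlier build.

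Ebp, the isomerase that moves a double bond in the sterol ring, had 10878, 13662 and 17712 in R159, against 6612, 7841 and 10752 in vehicle. Again the groups were separate by a narrow margin, with vehicle replicate 3 just under R159 replicate 1. The means were 14084 ± 3436 in R159 and 8402 ± 2126.5 in vehicle (SD, n = 3 each), and the log2 fold change was 0.75 (SE 0.24, limma adjusted p = 0.0455). Ebp differed from the other enzymes in its vehicle libraries, where replicate 1 and not replicate 2 was lowest and the range was 1.63-fold. Its call was lost with the length trend removed (0.58, limma adjusted p = 0.086) and when R159 replicate 2 or 3 or vehicle replicate 1 or 2 was left out (0.57 to 0.75, limma adjusted p = 0.0906 to 0.154). It was also lost with trimmed-mean scaling factors (0.72, limma adjusted p = 0.0527); its transcript is 1743 nt.

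Cyp51, the lanosterol demethylase, had 7394, 5036 and 7377 in R159, against 3614, 2408 and 10972 in vehicle. Msmo1, which oxidises methyl groups of the sterol, had 5702.5, 4809 and 9315.5 in R159, against 2805.5, 1526 and 7009 in vehicle. Nsdhl, the dehydrogenase of the next step, had 3927.5, 3827 and 4690.4 in R159, against 1683.5, 1261 and 4777.5 in vehicle. For Cyp51 and Nsdhl vehicle replicate 3 was the highest of all libraries, while for Msmo1 R159 replicate 3 was. Msmo1 and Nsdhl had log2 fold changes of 1.03 and 0.93 and did not pass the test (limma adjusted p = 0.139 and 0.121), and Cyp51 gave 0.51 (limma adjusted p = 0.441).

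Hsd17b7, a ketosteroid reductase that completes this demethylation, was the only synthesis enzyme with a fold change below 0, with 2584, 1594.5 and 2211 in R159 and 1908.5, 1467 and 4471 in vehicle (log2 fold change -0.15, 95% interval -0.997 to 0.69). Sc5d, the lathosterol desaturase, had 36161, 34694 and 39809 in R159, against 18910, 18564 and 51145 in vehicle. The R159 libraries agreed within 1.15-fold for Sc5d, and the vehicle libraries differed by 2.75-fold. Dhcr7, the dehydrocholesterol reductase, had 4035, 3969.8 and 7067.5 in R159, against 2932.5, 2399 and 8135 in vehicle, a log2 fold change of 0.33 (limma adjusted p = 0.59). In the sterol arm as a whole 2 of 8 genes were called higher and 0 lower, where 12.8% and 14.2% of all genes were. The median log2 fold change of the arm was 0.63.

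**Figure D3:**
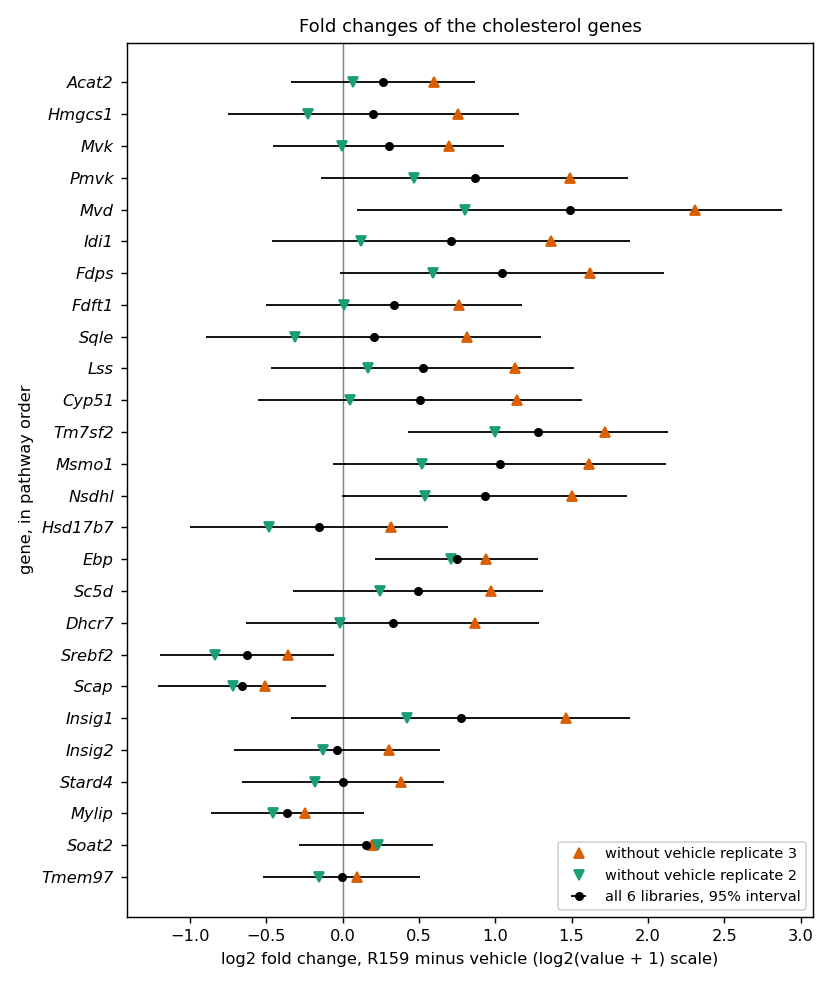
Log2 fold change (R159 minus vehicle, x axis, log2(value + 1) scale) of each gene (y axis, pathway order): black points with bars are the limma estimates with 95% intervals from all 6 libraries, and triangles are the estimates without vehicle replicate 3 or without vehicle replicate 2. Leaving out vehicle replicate 3 moves each enzyme to the right, to a median of 1.05 over the 18 enzymes, and leaving out vehicle replicate 2 brings that median to 0.14.

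The control genes did not move with the enzymes as a group. Srebf2, which encodes SREBP2, had 2764, 1984 and 2745 in R159, against 3494, 2863 and 5537 in vehicle, so that R159 lay wholly below vehicle. This was so for 1 of the 26 genes, against 23.6% of all genes tested. The log2 fold change of -0.63 (95% interval -1.19 to -0.06) did not pass over all genes (limma adjusted p = 0.0921), and it was -0.21 with the length trend removed; the transcript is 5077 nt.

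Scap, the escort protein, had 3659, 2772 and 5275 in R159, against 5226, 5503 and 7332 in vehicle. R159 replicate 3 just overlapped vehicle replicate 1, and the log2 fold change was -0.66 (95% interval -1.21 to -0.11, limma adjusted p = 0.073). Without R159 replicate 3 Scap was called lower (-0.90, limma adjusted p = 0.026). It was not called when any other 1 library was left out (-0.75 to -0.44, limma adjusted p = 0.104 to 0.223). With the length trend removed it gave -0.33 (limma adjusted p = 0.319).

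The retention proteins INSIG1 and INSIG2 hold SCAP in the endoplasmic reticulum, and Insig1 is itself a known SREBP target. Insig1 had 21447, 16421 and 23858 in R159, against 7439, 7307 and 30944 in vehicle. Insig2 had 12173, 11976 and 8129 in R159, against 7720.3, 9519 and 17329 in vehicle. Insig1 thus followed the pattern of the enzymes, with a 4.23-fold range among vehicle libraries, and Insig2 did so less clearly. The ratio of Insig1 to Insig2, whose longest transcripts have the same length of 2697 nt, stood at 1.76, 1.37 and 2.94 in R159, against 0.964, 0.768 and 1.79 in vehicle. Neither gene passed the test (log2 fold change 0.77 and -0.03, limma adjusted p = 0.265 and 0.943).

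Among the sterol-handling genes 0 of 4 were called, where 12.8% of all genes were called higher and 14.2% lower. The median log2 fold change of the 4 was 0.00. Stard4, a soluble carrier that moves cholesterol between membranes, had 3041, 3474 and 4019.9 in R159, against 2661, 2700.1 and 5871 in vehicle. Mylip, a ubiquitin ligase that degrades lipoprotein receptors and is induced through the sterol sensor LXR, had 544, 382 and 365 in R159, against 526, 479.7 and 640.1 in vehicle. Soat2, which esterifies cholesterol in hepatocytes, had 2932, 2201 and 1934 in R159, against 1773, 2323 and 2191 in vehicle. Their groups overlapped, and Soat2 was the only one of the 26 for which vehicle replicate 3 was not the highest vehicle library.

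Tmem97, which encodes a sterol-responsive membrane protein, had 3495.5, 4986 and 6095 in R159, against 5054, 3886 and 5483 in vehicle. The log2 fold changes of these 4 genes lay between -0.36 and 0.16 (limma adjusted p = 0.247 to 0.994). Their 95% intervals ran from -0.86 to 0.14 for Mylip, -0.28 to 0.60 for Soat2, -0.52 to 0.51 for Tmem97 and -0.66 to 0.66 for Stard4, so changes of moderate size were not detectable with this spread.

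Levels compared between genes per kilobase of the longest coding transcript spanned a wide range. In R159, Fdps was highest with a mean of 11919 per kb, ahead of Ebp (8080.3), Sc5d (7706), Insig1 (7629) and Hmgcs1 (5358). In vehicle the same 5 genes led, at 6618 per kb for Fdps, 4820.3 for Ebp, 6171 for Sc5d, 5647 for Insig1 and 5457 for Hmgcs1. Mylip was lowest in both groups, at 140.5 per kb in R159 and 179 per kb in vehicle. Among the enzymes Hsd17b7 was lowest in R159 (462 per kb) and Mvd in vehicle (534 per kb), a quantity that for Mvd rests on vehicle libraries far apart. In the GENCODE annotation of an earlier build Fdps shares 7512 bases with the same-strand gene Gm43738, and Srebf2 shares 2110 bases with Gm49502, so reads of these genes may be divided uncertainly.

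The synthesis enzymes varied together from library to library. Relative to the mean of the 6 libraries, the 18 enzymes deviated on average by 0.24, 0.04 and 0.64 (log2) in R159 replicates 1 to 3, and by -0.60, -1.07 and 0.75 in vehicle replicates 1 to 3. Vehicle replicate 2 was the lowest library for 17 of the 18 enzymes, and vehicle replicate 3 was the highest vehicle library for all 18. Over all genes tested, vehicle replicate 3 was the highest vehicle library for 38.9% and at least 2-fold above vehicle replicate 2 for 3.55%, while among the 26 genes 19 exceeded that fold. The depth of vehicle replicate 3 (70.6 M reads) and its share of mitochondrial transcripts (5.29%) lay between those of vehicle replicates 1 and 2. It had 351 genes listed at 0, against 222 and 202 in vehicle replicates 1 and 2. Over all genes tested it was the highest of the 6 libraries for 20.4% and the lowest for 17.8%, against 10.3% to 11.3% and 11.7% to 12.5% for the other vehicle libraries. The part of these differences in the enzyme values was not tested.

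**Figure D4:**
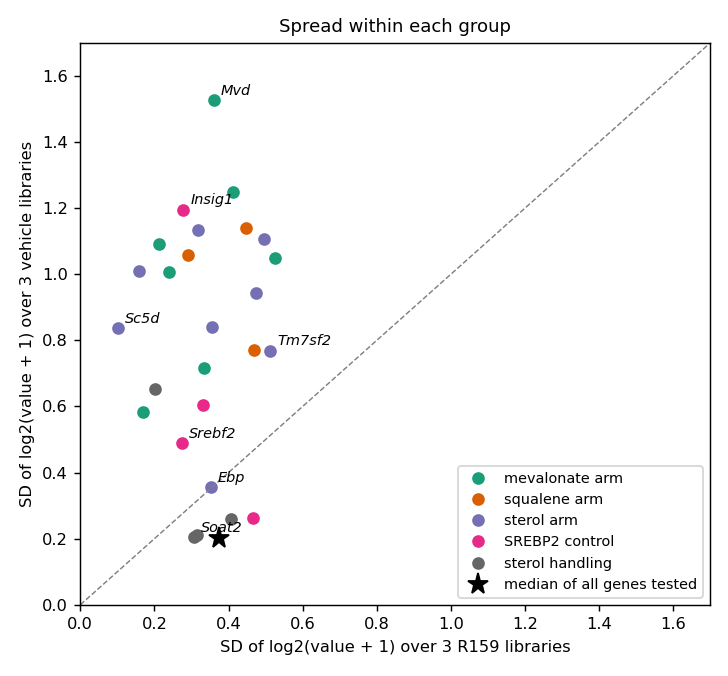
SD of log2(value + 1) over the 3 R159 libraries (x axis) and over the 3 vehicle libraries (y axis) for each of the 26 genes, coloured by role; the dashed line marks equal SD and the star the medians over all genes tested (0.373 in R159 and 0.203 in vehicle). The vehicle SD is the larger one for 22 of the 26 genes, among them all 18 enzymes.

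The spread within groups was the reverse of that of most genes. The median SD on the log2 scale was 0.332 in R159 and 0.838 in vehicle for the 26 genes, and 0.373 in R159 and 0.203 in vehicle for all genes tested. The vehicle SD exceeded the R159 SD for 22 of the 26 genes, against 24.7% of all genes tested; the 4 with the larger R159 SD were Scap, Mylip, Soat2 and Tmem97. This difference in spread is a description of 3 libraries a group and was not tested.

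Each gene was also compared with the mean of the other 25 over the 6 libraries, points that share library, depth and length trend. Pearson's r was above 0.9 for 16 of the 26 genes, from 0.990 for Acat2, 0.985 for Lss and 0.983 for Cyp51 and Mvk down to 0.918 for Fdps. It was 0.840 for Tm7sf2 and 0.682 for Ebp, the called genes, and 0.329 for Srebf2, 0.127 for Scap, 0.082 for Soat2 and 0.078 for Mylip. The called genes were not those that followed the common pattern most closely. That pattern is mostly spread among the vehicle libraries, which raises the standard error of a gene that follows it. Such a gene could hardly be called, so no conclusion is drawn from this.

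The promoters of the 26 genes were also searched for the sites of SREBP2 and of its usual partners, as a description of the sequence. RefSeq windows on GRCm38.p6, from 250 bases before to 50 bases after a gene's start, were found for 21 of the 26 genes (27 windows); Fdps, Fdft1, Sqle, Stard4 and Soat2 had none in the table used. A strict sterol regulatory element, TCACNCCAC on either strand, was in the window of Hmgcs1 only, 1 of 21 genes, against 1.44% of all genes with a window. The NF-Y box CCAAT was in 19 of 21 genes, against 41.1% of all genes, and the Sp1 box GGGCGG in 20 of 21, against 38.2%. The shares of all genes cover the 27025 genes with a window, tested in these libraries or not. No share was taken over liver-expressed genes alone. These matches describe letters in a window and say nothing of binding in these livers. The 250 bases before the start are shown for Hmgcs1, which holds the sterol element, for the called genes Tm7sf2 and Ebp, and for Mvd and Insig1, whose values were among the widest in vehicle. Capitals mark the sterol element and the NF-Y boxes, written ATTGG where they lie on the opposite strand.
Hmgcs1, chr13:119690101-119690350, plus strand: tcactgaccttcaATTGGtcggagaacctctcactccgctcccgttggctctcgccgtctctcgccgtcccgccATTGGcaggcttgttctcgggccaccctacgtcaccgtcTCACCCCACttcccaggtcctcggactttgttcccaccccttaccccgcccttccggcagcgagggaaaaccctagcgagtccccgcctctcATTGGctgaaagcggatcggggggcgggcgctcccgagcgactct
Tm7sf2, chr19:6067851-6068100, minus strand: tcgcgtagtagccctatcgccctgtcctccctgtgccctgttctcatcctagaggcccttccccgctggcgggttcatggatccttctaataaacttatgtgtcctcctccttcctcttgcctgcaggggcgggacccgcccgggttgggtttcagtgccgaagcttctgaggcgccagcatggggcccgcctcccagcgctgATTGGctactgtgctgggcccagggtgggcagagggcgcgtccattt
Ebp, chrX:8193513-8193762, minus strand: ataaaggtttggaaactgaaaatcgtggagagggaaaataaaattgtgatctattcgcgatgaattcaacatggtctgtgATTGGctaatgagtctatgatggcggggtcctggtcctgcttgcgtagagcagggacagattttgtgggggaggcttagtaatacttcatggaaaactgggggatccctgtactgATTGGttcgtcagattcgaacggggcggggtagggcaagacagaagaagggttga
Mvd, chr8:122443423-122443672, minus strand: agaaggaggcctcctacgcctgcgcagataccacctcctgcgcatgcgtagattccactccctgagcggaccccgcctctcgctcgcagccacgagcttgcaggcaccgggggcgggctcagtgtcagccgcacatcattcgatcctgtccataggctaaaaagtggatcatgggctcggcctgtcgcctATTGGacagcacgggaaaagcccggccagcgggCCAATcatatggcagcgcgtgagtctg
Insig1, chr5:28071162-28071411, plus strand: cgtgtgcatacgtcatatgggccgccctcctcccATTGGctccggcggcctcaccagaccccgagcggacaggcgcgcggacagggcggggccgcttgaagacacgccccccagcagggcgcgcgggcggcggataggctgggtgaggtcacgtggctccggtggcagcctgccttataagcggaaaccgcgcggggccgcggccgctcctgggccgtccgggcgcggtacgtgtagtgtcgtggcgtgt
In Hmgcs1 the element lies at positions -137 to -129 from the gene's start, with an NF-Y box on either side of it. Tm7sf2 and Insig1 each hold 1 NF-Y box in the stretch shown, Ebp and Mvd 2 and Hmgcs1 3.

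Other genes of sterol metabolism were read from 7 lists covering the neighbouring steps. The median log2 fold change was below 0 in each, from -0.09 to -0.64, with the length trend left in. No list median was taken with that trend removed, so its part in these medians was not tested. The lists were chosen with earlier results of these data known, so their counts are descriptions and no evidence of an excess. Beside the list counts, 12.8% of all genes tested were called higher and 14.2% lower. The shares were 9.94% and 8.2% with the length trend removed, and 6.39% and 6.7% without vehicle replicate 3. Of 8 genes of acetyl-CoA and ketone supply, 0 were called higher and 0 lower (median log2 fold change -0.09). Of 7 tested other sterol enzymes and their partners, 1 was higher and 1 lower (median -0.59). The higher one was Erg28, a scaffold of the sterol demethylation complex in yeast, with a log2 fold change of 0.75 (limma adjusted p = 0.0472), named here after its value was seen although its groups overlapped (R159 replicate 1 at 3332.5, vehicle replicate 3 at 3346); with the length trend removed it gave 0.24 (limma adjusted p = 0.496). Of 14 genes of the isoprenoid branch, which leads to dolichol, ubiquinone and prenylated proteins, 0 were higher and 3 lower (median -0.11). Nus1 and Dhdds, the subunits of the enzyme that makes the dolichol chain, both fell, Nus1 by 0.65 (limma adjusted p = 0.018) and Dhdds by 0.52 (limma adjusted p = 0.0375) in log2 units. With the length trend removed neither was called (limma adjusted p = 0.151 and 0.126), and without vehicle replicate 3 none of the 14 was. Over the list, 2 genes were called higher and 1 lower with the length trend removed.

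The machinery around SREBPs lay lower in R159 more often than higher. Of 19 genes of SREBP processing and of sterol-regulated degradation, 1 was called higher and 8 lower (median -0.49), where 12.8% and 14.2% of all genes were; with the length trend removed 0 were higher and 2 lower, and without vehicle replicate 3 there were 1 higher and 1 lower. Nploc4, a cofactor of the segregase that extracts proteins from the endoplasmic reticulum membrane, had 2386, 1840 and 2075 in R159 and 4492, 4993 and 5624 in vehicle (log2 fold change -1.26, limma adjusted p = 0.00343). Sar1b, a GTPase of the coat that carries cargo to the Golgi, had 8817, 11670 and 9554 in R159 and 5530.4, 5107 and 6110.5 in vehicle (0.84, limma adjusted p = 0.00848), and was not called with the length trend removed (0.34, limma adjusted p = 0.0868) or without vehicle replicate 2 (limma adjusted p = 0.0517).

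Of 18 genes of intracellular sterol movement, 2 were higher and 5 lower (median -0.37), where 12.8% and 14.2% of all genes were. With the length trend removed there were 2 higher and 2 lower, where 9.94% and 8.2% of all genes were. Without vehicle replicate 3 there were 1 higher and 4 lower, where 6.39% and 6.7% of all genes were. Gramd1a, which moves cholesterol from the plasma membrane to the endoplasmic reticulum, rose, with 2037, 1770 and 1271 in R159 and 732, 652 and 610 in vehicle (log2 fold change 1.33, limma adjusted p = 0.00435). Osbp, a sterol carrier to the Golgi, fell, with 2205, 1704 and 1755 in R159 and 3527, 3430 and 4338 in vehicle (-0.997, limma adjusted p = 0.00547). Both kept their calls with the length trend removed (1.41 and -0.64, limma adjusted p = 0.00512 and 0.0138). For these genes, unlike the enzymes, vehicle replicate 3 was close to the other vehicle libraries.

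Of 10 genes of LXR and its targets, which answer to high sterol, 1 was higher and 5 lower (median -0.64), where 12.8% and 14.2% of all genes were. With the length trend removed 0 were higher and 2 lower, and without vehicle replicate 3 there were 0 higher and 3 lower. Abca1, the cholesterol exporter, fell, with 3326, 1898 and 2951 in R159 and 6135, 6389 and 6934 in vehicle (log2 fold change -1.29, limma adjusted p = 0.00501; with the length trend removed -0.80, limma adjusted p = 0.00819). Abcg1, another sterol exporter, had 326, 292 and 437.5 in R159 and 846, 841 and 679.5 in vehicle (-1.18, limma adjusted p = 0.0065), and was not called with the length trend removed (limma adjusted p = 0.0546). Of 12 lipogenic targets of SREBP1, the related factor of fatty acid synthesis, 0 were higher and 2 lower (median -0.12). Without vehicle replicate 3 there were 2 higher and 2 lower, where 6.39% and 6.7% of all genes were. With all libraries the lower ones were Acaca, the acetyl-CoA carboxylase, with a log2 fold change of -0.97 (limma adjusted p = 0.00468), and Scd2, a fatty acid desaturase, with -2.28 (limma adjusted p = 0.0189). Without vehicle replicate 3, which had 2714 against 596 and 726 in the other vehicle libraries, Scd2 gave -1.60 (limma adjusted p = 0.0403), and without R159 replicate 2 it was not called (limma adjusted p = 0.0652). Neither Acaca nor Scd2 was called with the length trend removed (limma adjusted p = 0.0801 and 0.0501). In this list too vehicle replicate 3 was the highest vehicle library for 11 of 12 genes, with a median log2 difference to vehicle replicate 2 of 1.42, against 1.56 for the 26 cholesterol genes and 0.02 for all genes tested.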

How the data were processed

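Poly(A) RNA from 6 liver samples was sequenced with a stranded, paired-end protocol per the labels. The submitters' processing notes name FastQC 0.11.9, cutadapt, STAR 2.7.8a, DESeq2 (given there as 3.5), R 4.2.3 and genome build mm39. No source used here names the counting program or the annotation. The deposited values are a signal scaled between libraries by the authors, labelled normalised counts per the labels. Among low values above 0, up to a fixed multiple of 1 read, 67.5% to 75.6% were whole multiples of 1 read within 0.02. The values were thus taken as estimated counts divided by a size factor, and no count test was run. Depth was estimated from the value of 1 read.

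Values were tested as log2(value + 1) with limma 3.58.1 (R 4.3.3, trended empirical Bayes, 2-sided, Benjamini-Hochberg) in genes with a mean of at least 10, 3 R159 libraries against 3 vehicle libraries grouped by their labels, with no covariate. Of 18720 rows, 16594 were tested. Fold changes on this scale understate the change of low genes. The script was tested on simulated data in which 200 of 16594 genes were changed, with the spread of each gene in these libraries. It called 29% of the genes given a log2 change of 1 in size and 63% of those given 2. Of the genes called there, 6.12% were false. Genes were drawn independently there, without the length trend or the pattern shared within libraries. Far fewer genes were changed than the 4479 called in these data. The shares thus describe the simulated setting and may not hold for these libraries. Transcript lengths and overlaps came from GENCODE M21 (GRCm38), and promoters from RefSeq. The length trend was removed per library by lowess (span 0.3). Alternatives changed the pseudocount, filter, scaling, trend, weights, block, length trend and libraries.

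All 26 genes are named; in the other lists up to 2 called genes of smallest p with groups that do not overlap are named, and the 3 genes most like the 26. Erg28 and Krt7 were named outside this rule. Members and lists were chosen with earlier results of these data known. Some results under these rules are not reported here.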

Additional observations from a re-analysis of the deposited data

How the results depend on the processing

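Of the 26 cholesterol genes, 2 were called, both higher. This became 1 with trimmed-mean scaling (TMM) factors, 0 with empirical Bayes without a trend, 6 with array weights, all higher, where 15.8% of all genes were higher, and 0 with the length trend removed. Leaving out 1 library in turn gave 0 to 12 called, 0 to 12 higher and 0 to 1 lower. The median log2 fold change of the 26 was 0.33; it was 0.06 without vehicle replicate 2, 0.84 without vehicle replicate 3 and 0.89 with array weights, and lay between 0.22 and 0.50 under the others. Over all genes 4479 were called, 2125 higher and 2354 lower; with the length trend removed there were 2916, 1318 of them lower, and without the empirical Bayes trend 1443 lower. Leaving out 1 library gave 1841 to 5425 called, 918 to 2516 higher and 923 to 2909 lower. Rescaling without the 20 highest genes shifted the median of all genes by -0.11 and gave 1501 higher and 2497 lower.

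Over all genes tested, the deviations of same-numbered libraries from their group means had r = -0.0981, 0.0314 and 0.108. With 3 libraries a group, these values cannot decide whether the numbers pair the groups. For the 18 enzymes, replicate 3 had the highest mean deviation and replicate 2 the lowest in both groups. With the replicate number as a block 8 of the 26 were called, 6 higher and 2 lower, where 11.5% of all genes were higher and 12.3% lower, 3945 in all.

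The sign of the log2 fold change held in all 16 alternatives for 17 of the 26 genes. Leaving out 1 library gave -0.23 to 0.75 for Hmgcs1, -0.005 to 0.70 for Mvk, -0.31 to 0.81 for Sqle, -0.014 to 0.87 for Dhcr7, -0.48 to 0.32 for Hsd17b7, -0.28 to 0.30 for Insig2, -0.19 to 0.38 for Stard4, -0.013 to 0.29 for Soat2 and -0.19 to 0.21 for Tmem97. Array weights gave 0.24 for Hsd17b7, -0.010 for Soat2 and 0.28 for Tmem97. Removing the length trend gave 0.22 for Hsd17b7 and 0.046 for Insig2. Stard4 was at -0.027 with trimmed-mean factors and -0.11 rescaled without the 20 highest genes. The cause of these shifts was not tested. The number of libraries, 3 a group, limits the precision of every value; whether depth limits the calls was not tested.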

Other observations

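Outside the 26 genes, the genes whose log2 values over the 6 libraries were most like their mean were Ugt1a5 (Pearson's r 0.989), Fras1 (0.989) and Ing1 (0.978). They were picked as the nearest of all tested genes, so the likeness is a description. Ugt1a5, a glucuronosyltransferase, had 3332, 3207 and 4254 in R159 and 1869, 1582 and 6004 in vehicle. Fras1, an extracellular matrix protein, had 116, 119 and 146 in R159 and 87.2, 74.4 and 168 in vehicle. Ing1, a chromatin reader, had 659, 609.6 and 689 in R159 and 544, 534 and 695 in vehicle. In each, vehicle replicate 2 was the lowest library and vehicle replicate 3 the highest, and none was called (limma adjusted p = 0.456, 0.562 and 0.559).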
